A study of Homo sapiens with 6 samples.

Results

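Aminoacyl-tRNA synthetases join each amino acid to its tRNA, and the genes described here are 36 of them: 20 that serve the cytosol and 16 that serve the mitochondrion. The starting point was YARS2, the mitochondrial tyrosyl-tRNA synthetase, which read higher after VAMP7 knockdown, and the question was whether other synthetases shared that difference. YARS2 was chosen by its intensities in this same comparison, higher on the knockdown arrays, so they are described without a test. The other genes were listed by their enzyme family. Of the 36 genes, 32 were represented by at least 1 probe set that names a single gene, 17 cytosolic and 15 mitochondrial, with 67 probe sets among the 54675 on the array. MARS1, QARS1 and TARS2 are named only by probe sets that name several genes, which were not used here.

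A human cell has separate sets of synthetases for the ribosomes of the cytosol and those of the mitochondrion, and nearly all are encoded in the nucleus by separate genes. GARS1 and KARS1 are exceptions, since each gene makes both the cytosolic and the mitochondrial enzyme. Mitochondrial synthetases charge the tRNAs that read the few respiratory chain genes kept on mitochondrial DNA, and inherited loss of YARS2 function causes a myopathy with lactic acidosis and sideroblastic anaemia. Several cytosolic synthetases sit in a multisynthetase complex held together by scaffold proteins, and many cytosolic synthetase genes are targets of ATF4, the transcription factor of the amino acid response.

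The cells were NTERA2/D1, an established pluripotent embryonal carcinoma line from a human testicular teratocarcinoma. Transfection followed 24 h after plating, with nonspecific scrambled siRNA (3 arrays, replicates 1 to 3) or with siRNA against human VAMP7 (3 arrays, replicates 1 to 3), and RNA was taken after 72 h. No untreated cells and no second siRNA against VAMP7 were analysed here, and the siRNA sequences are not given in the labels. The titles number the knockdown arrays 1 to 3, while a second label field gives all of them the number 1. Replicates are called biological with no separate cultures named, so any p-value measures the spread between these arrays, which may be technical.

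The values were linear intensities, and every log2 difference below is the mean log2(intensity + 50) of the VAMP7 siRNA arrays minus that of the scrambled arrays, which understates differences of dim probe sets. Median intensity ran from 58.8 to 67.5. The number of arrays limits the precision. VAMP7 read 2615 ± 127 on scrambled arrays and 154 ± 19.8 on knockdown arrays (SD, n = 3 each), and it was the only probe set of 54613 past an adjusted p of 0.05 in limma. At an unadjusted p under 0.05 there were 2256 higher and 1357 lower. Knockdown replicate 1 correlated with the remaining arrays at 0.984 on average, the lowest of the 6 (the next 5 had 0.986 to 0.987). The embryonal carcinoma markers SOX2 and LIN28A read 17212 and 32836 on average on the scrambled arrays, NANOG 4839, and the leukocyte markers CD14 and PTPRC 5.05 and 15.4. Markers of other cell types were not all low: endothelial TEK, VWF and KDR read 1425, 1176 and 914, CDH5 42.7, and fibroblast COL1A1 2568. Below the median gene in signal were 4 of the 6 fibroblast and 2 of the 5 endothelial markers. Of the fibroblast markers 3 lay above and 3 below 0 (median 0.053, lowest -0.32). Their summed intensity ran from 3007 to 3330 on scrambled and 3132 to 3848 on knockdown arrays. VWF read 1182, 1129 and 1217 on scrambled and 1863, 1529.9 and 1396 on knockdown arrays, a log2 difference of 0.42 (adjusted p = 0.675 in limma), with all knockdown arrays above. NANOG read 5151, 4314 and 5053 and then 3629, 4283 and 3993, a log2 difference of -0.28 (adjusted p = 0.755 in limma), with all knockdown arrays below. NANOG was the lowest of the 8 measured embryonal carcinoma markers, of which 4 lay above and 4 below 0 (median 0.0098, highest 0.22). The summed intensity of these 8 overlapped between groups, from 77232 to 97702 on scrambled and 85033 to 97539 on knockdown arrays. The 5 endothelial markers had a median log2 difference of 0.18, and their summed intensity ran from 3505 to 3722 on scrambled and 3949 to 4468 on knockdown arrays. No marker of the 4 lists passed in limma, and their part in the synthetase values was not tested.

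YARS2 read 1604, 1186 and 890.2 on scrambled replicates 1 to 3 and 4366, 7338 and 4019 on knockdown replicates 1 to 3. Every knockdown array lay above every scrambled array, with knockdown replicate 2 the highest. The lowest knockdown array was 2.51-fold above the highest scrambled one, and the means were 1227 ± 359 and 5241 ± 1824 (SD, n = 3 each), a ratio of 4.27. In RNA pooled from whole cultures, more transcript per cell and more cells carrying it cannot be told apart. The log2 difference was 2.04 (SE 0.29). Among the 27307 probe sets with a mean at or above the median probe set, 7 (0.0256%) had a log2 difference of 1 or more and YARS2 alone (0.00366%) reached 2. These are the values for which YARS2 was chosen. All rest on 1 probe set, 218470_at, the only one that names YARS2, so no second measurement of its transcript stands beside it.

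YARS2 was also uneven within each group. The 3 scrambled arrays alone spanned 1.80-fold, from 890.2 to 1604, and the knockdown arrays 1.83-fold. Its within-group SD was 0.44 on the log2 scale, against a median of 0.11 for the other 31 measured synthetases and 0.13 for the 10037 genes whose signal reached the median gene, and 0.418% of those genes were more variable. On the scrambled arrays alone, 0.817% were. No other synthetase was as variable. The nearest were VARS1, the cytosolic valyl-tRNA synthetase, at 0.33 and RARS2, the mitochondrial arginyl-tRNA synthetase, at 0.32. Leaving out 1 array at a time gave YARS2 log2 differences from 1.77, without knockdown replicate 2, to 2.24, without scrambled replicate 1.

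**Figure D1:**
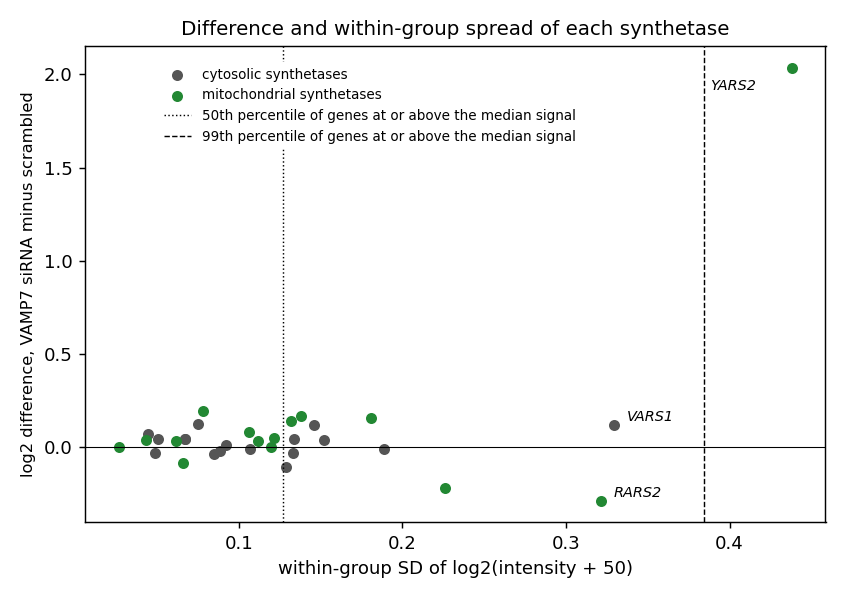
Log2 difference (VAMP7 siRNA minus scrambled, log2(intensity + 50)) of each of the 32 measured synthetases against its within-group SD on the same scale, brightest probe set. YARS2 lies at 2.04 and 0.44, to the right of the dashed line that marks the 99th percentile of the SD over genes whose signal reached the median gene (0.38), and all other synthetases lie to the left of it.

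The promoter of YARS2, the gene that stood apart, is shown whole, from the RefSeq promoter table (GRCh38.p14, 250 bases before to 50 after a gene's start). The window is chr12:32755848-32756147, on the minus strand, written 5′ to 3′ along the gene. Its capitals mark a match to TGATGNAA, the core of the amino acid response element bound by ATF4, which begins at -197 from the start, and a match to AANATGGCG, a YY1 motif, at 20 past it.
YARS2: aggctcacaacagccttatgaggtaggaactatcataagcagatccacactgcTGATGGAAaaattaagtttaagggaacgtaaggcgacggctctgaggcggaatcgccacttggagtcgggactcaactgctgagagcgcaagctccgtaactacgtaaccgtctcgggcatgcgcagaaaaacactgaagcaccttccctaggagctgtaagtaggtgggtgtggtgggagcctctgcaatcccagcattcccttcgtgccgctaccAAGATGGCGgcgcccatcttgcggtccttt

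The cytosolic counterpart of YARS2 did not share its difference. YARS1, which charges the cytosolic tyrosine tRNA, read 7033, 8395 and 8418 on the scrambled arrays and 6867, 7279 and 7964 on the knockdown arrays. The groups overlapped, with scrambled replicate 1 below 2 of the knockdown arrays. The log2 difference was -0.11 with a 95% interval of -0.39 to 0.18 (SE 0.12, adjusted p = 0.904 in limma). It was -0.19 without scrambled replicate 1 and -0.057 without knockdown replicate 1, and lay between these with any other array left out. A second YARS1 probe set, dimmer at 225 on the scrambled arrays, gave -0.10 (adjusted p = 0.91 in limma), so both lay on the same side of 0, opposite to YARS2. On the log2 scale the tyrosine pair therefore differed by 2.14 between its mitochondrial and cytosolic member. In the other 10 pairs measured for the same amino acid, this mitochondrial minus cytosolic difference ran from -0.26 for cysteine to 0.19 for serine, with 5 of 10 above 0 and a median of 0.00093.

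None of the other synthetases passed the test. Of the 66 probe sets other than that of YARS2, 0 were called in limma, where 0.00183% of all probe sets were. At an unadjusted p under 0.05, 2 of the 66 were higher and 0 lower, against 4.13% and 2.48% of all probe sets. Both of these, 1 of CARS2 and 1 of FARSB, were dim and differed in sign from the brightest probe set of their gene. All 3 knockdown arrays lay above all 3 scrambled arrays for 5 of the 66, and below for 1, against 7.28% and 5.15% of all probe sets. With the brightest probe set standing for each gene, the knockdown arrays lay wholly above for 2 of the 31 genes (EPRS1 and MARS2) and wholly below for 0, against 6.68% and 6.29% of the 19775 genes. These counts are near the background.

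**Figure D2:**
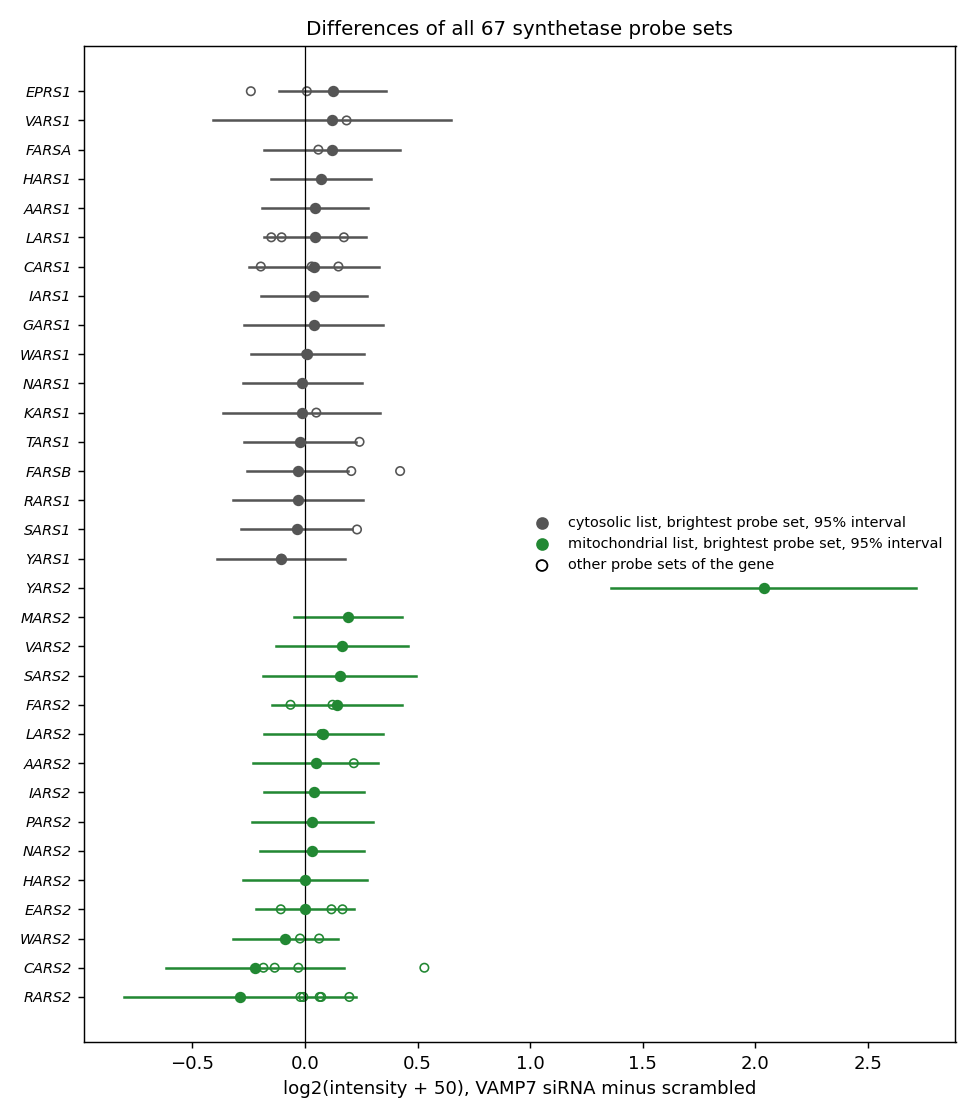
Log2 difference (VAMP7 siRNA minus scrambled, log2(intensity + 50)) of the 67 synthetase probe sets, 1 row per gene, cytosolic above and mitochondrial below. Filled points are the brightest probe set of each gene with its 95% interval from limma (3 arrays against 3), and open points are the other probe sets. YARS2 is at 2.04, and its interval is no test, because the gene was chosen on these values. The other filled points lie between -0.29 and 0.19.

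Among the 31 genes, 21 lay above 0 and 10 below (50.8% of all genes lay above 0), and 43 of the 66 probe sets lay above 0 (53.8% of all probe sets). After each array was centred on its median, which lowered every difference by 0.042, 12 of the 31 genes lay above 0 (38.7%), beside 40.3% of all genes. The median log2 difference was 0.039 for the 17 cytosolic genes and 0.035 for the 14 mitochondrial genes without YARS2, beside 0.0030 for all genes. After centring, the medians were -0.0034, -0.0068 and -0.039. Both medians were smaller than the SD between arrays of the corresponding array medians, 0.044 and 0.042. Of the 31 genes, 30 had an absolute difference under 0.25. The upper ends of the 95% intervals reached at most 0.65, for VARS1, and the lower ends at most -0.80, for RARS2. The brightest probe sets of all 31 were at or above the median gene in signal.

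The mitochondrial synthetases with the highest differences after YARS2 were MARS2, VARS2 and SARS2, which charge methionine, valine and serine tRNAs. MARS2 read 215, 183 and 217 on the scrambled arrays and 241, 237 and 244 on the knockdown arrays. Its lowest knockdown array lay above its highest scrambled array. The log2 difference was 0.19 with a 95% interval of -0.051 to 0.43 (SE 0.10, adjusted p = 0.799 in limma). VARS2 read 1195, 1136 and 1012 on scrambled and 1410.3, 1232 and 1128 on knockdown arrays, with knockdown replicate 3 below 2 scrambled arrays. Its log2 difference of 0.16 (SE 0.12, adjusted p = 0.864 in limma) was 0.080 without knockdown replicate 1, 0.099 without scrambled replicate 3 and 0.24 without knockdown replicate 3. SARS2 read 303, 282 and 290.3 on scrambled and 405, 327 and 271 on knockdown arrays, so that its knockdown arrays held both the highest and the lowest value of the 6. Its log2 difference was 0.15 (SE 0.14, adjusted p = 0.884 in limma), but 0.025 without knockdown replicate 1 and 0.28 without knockdown replicate 3. Each of these 3 genes had 1 probe set.

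At the low end, RARS2, which charges mitochondrial arginine tRNA, read 1889.6, 2118 and 1872 on the scrambled arrays and 1102, 1891 and 1935 on the knockdown arrays. Knockdown replicate 1 alone was low, and the other knockdown arrays lay inside the scrambled range. The log2 difference of -0.29 (SE 0.22, adjusted p = 0.864 in limma) was -0.032 without that array and -0.42 without knockdown replicate 3. A second RARS2 probe set, at 764 on the scrambled arrays, gave -0.0072, and 4 dimmer ones lay between -0.020 and 0.20. CARS2, the mitochondrial cysteinyl-tRNA synthetase, read 953, 767 and 751 on scrambled and 562, 719 and 829.8 on knockdown arrays, with knockdown replicate 1 again the lowest. Its log2 difference was -0.22 (SE 0.17, adjusted p = 0.863 in limma), but -0.079 without knockdown replicate 1, -0.12 without scrambled replicate 1, -0.34 without knockdown replicate 3 and -0.0079 when its 5 probe sets were averaged. The dim CARS2 probe set 1557179_s_at went the other way, reading 5.27, 6.63 and 5.73 on scrambled and 31.1, 22.7 and 39.2 on knockdown arrays, a log2 difference of 0.53 (SE 0.11, adjusted p = 0.608 in limma). That value is set by the offset of 50: it was 2.37 with an offset of 0, 1.09 with 16 and 0.31 with 100, and the ratio of mean intensities was 5.27. All of its arrays read below the median probe set, 58.5, and the other 3 CARS2 probe sets lay between -0.18 and -0.030.

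**Figure D3:**
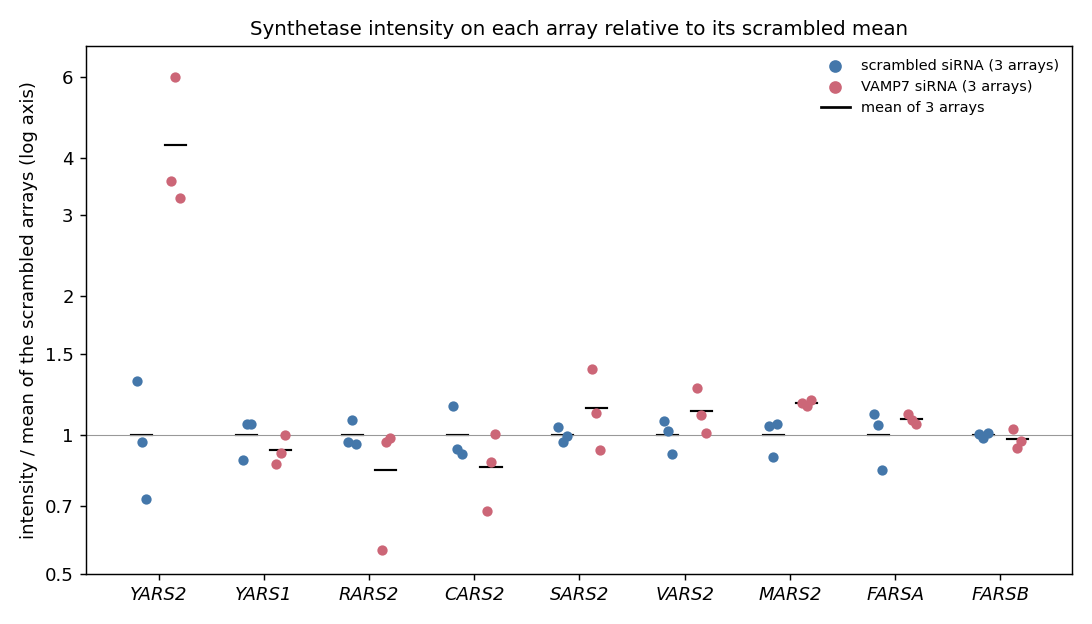
Intensity of 9 synthetases on each of the 6 arrays divided by the mean of that gene's 3 scrambled arrays, on a log axis, with bars at the mean of 3 arrays. The 3 VAMP7 siRNA arrays of YARS2 stand above all of its scrambled arrays, on average 4.27 times the scrambled mean, while the groups of the other genes overlap except those of MARS2.

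The remaining 9 mitochondrial synthetases lay close to 0 on their brightest probe sets. FARS2, a monomeric phenylalanyl-tRNA synthetase, had a log2 difference of 0.14 and LARS2, for leucine, 0.081 and 0.074 on its 2 probe sets. AARS2 (alanine), IARS2 (isoleucine), PARS2 (proline) and NARS2 (asparagine) lay between 0.031 and 0.049. A second AARS2 probe set, dimmer at 241 on the scrambled arrays, gave 0.22 (adjusted p = 0.859 in limma). HARS2 (histidine) was at 0.0013, reading 991 ± 49.5 in scrambled and 995 ± 110.0 in knockdown (SD, n = 3 each). EARS2, which charges both glutamate and glutamine tRNA in mitochondria, read 1420.4 ± 34.7 and 1420.4 ± 16.3 (SD, n = 3 each). On that probe set the level was the same to within its small spread, while the dimmer EARS2 probe sets ran from -0.11 to 0.17. WARS2 (tryptophan) was at -0.086 and, on a second probe set, 0.063. Adjusted p-values of the brightest probe sets of these 9 ran from 0.879 for FARS2 to 0.99979 for EARS2 in limma.

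Of the cytosolic synthetases, those of the multisynthetase complex had 5 measured members of 8, with 3 above 0 and a median log2 difference of 0.041. EPRS1, which charges both glutamate and proline, was the highest, reading 6018, 5972 and 6188 on scrambled and 7169, 6359 and 6305 on knockdown arrays, so its groups were separate. Its log2 difference was 0.12 (SE 0.10, adjusted p = 0.875 in limma), but its 2 dimmer probe sets gave 0.0084 and -0.24. LARS1 (leucine) was at 0.045, with its other 3 probe sets from -0.15 to 0.17, IARS1 (isoleucine) at 0.041, KARS1 (lysine) at -0.013 and RARS1 (arginine) at -0.032. The scaffold protein AIMP1, the 1 measured of 3 listed scaffold and partner genes, read 2180.3 ± 107 in scrambled and 2015 ± 28.1 in knockdown (SD, n = 3 each), a log2 difference of -0.11 (adjusted p = 0.879 in limma).

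FARSA and FARSB encode the alpha and beta subunits of 1 enzyme, the cytosolic phenylalanyl-tRNA synthetase. FARSA read 1132, 1073 and 855 on scrambled and 1134, 1099 and 1079 on knockdown arrays, overlapping groups in which scrambled replicate 3 was low. Its log2 difference was 0.12 (SE 0.13, adjusted p = 0.9 in limma), but 0.0026 without scrambled replicate 3 and 0.19 without scrambled replicate 1. FARSB read 3395, 3329 and 3414 on scrambled and 3475, 3170.0 and 3277 on knockdown arrays, a log2 difference of -0.031 (SE 0.095, adjusted p = 0.973 in limma) that turned to 0.20 when its 3 probe sets were averaged. The dim FARSB probe set 223036_at was among those with an unadjusted p under 0.05, at 22.7, 33.5 and 27.9 on scrambled and 54.6, 56.7 and 52.0 on knockdown arrays, a log2 difference of 0.42 (adjusted p = 0.611 in limma) that was 0.97 with an offset of 0 and 0.27 with 100. Thus the 2 subunits differed in sign on their brightest probe sets, but each difference was smaller than its SE. A second FARSA probe set gave 0.060. With the probe sets of each gene averaged both lay above 0, FARSA at 0.089 and FARSB at 0.20.

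The other cytosolic synthetases also lay near 0 on their brightest probe sets. VARS1 (valine) read 1498, 974 and 892 on scrambled and 1439, 1196 and 982 on knockdown arrays, each group covering much of the other, with a log2 difference of 0.12. HARS1 (histidine) was at 0.072, AARS1 (alanine) at 0.045, CARS1 (cysteine) at 0.041, GARS1 (glycine) at 0.039 and WARS1 (tryptophan) at 0.010. NARS1 (asparagine), TARS1 (threonine) and SARS1 (serine) were at -0.012, -0.020 and -0.037. A second SARS1 probe set, dimmer at 509 on the scrambled arrays, gave 0.23, and a dim TARS1 probe set, at 36.1, gave 0.24. On the brightest probe sets, none of these 9 had an adjusted p under 0.919 in limma. CARS1 had a probe set, 240982_at, whose knockdown arrays all lay below the scrambled ones, at 7.86, 8.50 and 18.7 on scrambled and 3.61, 2.71 and 4.69 on knockdown arrays, far below the median probe set. Of the 18 synthetases with several probe sets, 6 had all of them on 1 side of 0: FARSA, VARS1, WARS1, AARS2 and LARS2 above and YARS1 below. Split by catalytic fold, the 15 measured class I enzymes without YARS2, itself of class I, had a median of 0.039 and the 15 class II enzymes 0.032, with 10 of 15 above 0 in each. EPRS1, which carries both folds, was left out of this split.

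HARS1 and HARS2 were the only pair of listed synthetases that are neighbouring protein-coding genes in the reference gene table, and they were at 0.072 and 0.0013. YARS2 lies between DNM1L, the dynamin-like GTPase of mitochondrial fission, and PKP2, a desmosomal plakophilin. DNM1L read 13593 ± 687 in scrambled and 14192 ± 453 in knockdown (SD, n = 3 each), a log2 difference of 0.063 (adjusted p = 0.935 in limma), and -0.058 on a second bright probe set. PKP2 read 826 ± 149 and 811 ± 115 (SD, n = 3 each), a log2 difference of -0.021 (adjusted p = 0.991 in limma) that turned to 0.10 when its probe sets were averaged. Neither neighbour therefore showed a difference of the size seen at YARS2.

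The letters TGATGNAA, marked in the YARS2 promoter, were looked for in the others. The RefSeq table held 30 of the 36 genes, and AARS2, LARS1, VARS1, VARS2 and YARS1 were among those not matched. TGATGNAA, searched on both strands, was found in 8 of the 30 genes, 7 of 16 cytosolic (43.8%) and 1 of 14 mitochondrial (7.14%), that 1 being YARS2, against 4.46% of 27305 genes and 3.62% of 35116 windows. The 7 cytosolic matches are shown, in capitals and with the bases around them, because this motif was the one found in many cytosolic and few mitochondrial promoters. Each is written 5′ to 3′ along its gene.
AARS1 (chr16:70289675-70289704, minus strand): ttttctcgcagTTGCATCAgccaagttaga
CARS1 (chr11:3057407-3057436, minus strand): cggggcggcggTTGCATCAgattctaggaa
GARS1 (chr7:30594834-30594863, plus strand): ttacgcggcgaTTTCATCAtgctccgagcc
IARS1 (chr9:92293692-92293721, minus strand): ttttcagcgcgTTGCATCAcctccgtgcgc
MARS1 (chr12:57488053-57488082, plus strand): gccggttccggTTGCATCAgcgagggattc
NARS1 (chr18:57621804-57621833, minus strand): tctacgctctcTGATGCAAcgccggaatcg
TARS1 (chr5:33440956-33440985, plus strand): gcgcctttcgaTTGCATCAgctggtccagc

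In 6 of these 7 the match was on the opposite strand, as TTGCATCA or, in GARS1, TTTCATCA, and NARS1 carried TGATGCAA. The match in YARS2, TGATGGAA, and that in AARS1 began at -197 and -187 from the start, and that in GARS1 at -33, whereas those of CARS1, IARS1, MARS1, NARS1 and TARS1 began from -13 to 14. Genes with and without a match had overlapping log2 differences. The 6 measured cytosolic genes with a match had a median log2 difference of 0.040, with 4 above 0, and the 8 with a promoter window and no match a median of -0.0017, with 4 above 0. Both ranges, -0.020 to 0.045 and -0.037 to 0.12, were far from the 2.04 of YARS2.

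Other motifs were counted in the same windows. The ETS core CCGGAAG was found in 9 of 16 cytosolic and 7 of 14 mitochondrial genes, 56.2% and 50%, against 12.2% of all genes (10.3% of windows), and YARS2 had none. The motif of NRF1, a regulator of nuclear genes for mitochondria, was in 3 of 16 and 3 of 14 (6.98% of all genes, 5.78% of windows), and AANATGGCG in 3 of 16 and 3 of 14 (3.85% and 3.19%). The E-box CACGTG was in 1 of 16 and 3 of 14 (8.78% and 7.26%). All were searched on both strands, and the NRF1 motif can match both strands at 1 place, as in MARS2. MARS2, the highest gene after YARS2, had matches to the ETS core, the E-box and the NRF1 motif. CARS2, among the lowest at -0.22, also had matches to the ETS core and the E-box. A link between these motifs and the differences was not tested. A match is a description of letters and not a measured binding site.

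No gene of the lists that work beside the synthetases passed the test. Of 21 measured genes of the amino acid response, 14 lay above 0 and 7 below (median 0.021), where 50.8% of all genes lay above 0. None passed in limma, with 0 higher and 1 lower at an unadjusted p under 0.05, against 3.28% and 2.61% of all genes. The member of smallest p was CHAC1, a glutathione-degrading enzyme induced by ATF4, which read 655 ± 53.0 in scrambled and 535 ± 31.1 in knockdown (SD, n = 3 each), a log2 difference of -0.27 (adjusted p = 0.745 in limma). Next was the lipoprotein receptor VLDLR at -0.22. ATF4 itself was at 0.11, and ASNS, asparagine synthetase, at -0.14.

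On the mitochondrial side, 12 of 13 listed translation factors were measured, 5 above and 7 below 0 (median -0.012), 1 of them higher and 0 lower at an unadjusted p under 0.05. The ribosome-binding GTPase GUF1 read 654 ± 49.4 in scrambled and 823 ± 70.8 in knockdown (SD, n = 3 each), a log2 difference of 0.31 (adjusted p = 0.728 in limma), and TACO1, a translational activator of cytochrome c oxidase, was at -0.20. The elongation factor TUFM, which carries charged tRNAs to the mitochondrial ribosome, was at 0.12. Among 19 genes of mitochondrial tRNA modification, processing and amidation, 11 lay above and 8 below 0 (median 0.013), with MTO1, a tRNA wobble modification enzyme, at -0.18 and HSD17B10, a subunit of mitochondrial RNase P, at -0.18. TRNT1, which adds the CCA end that every synthetase acts on, was at 0.087.

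In the cytosol, 14 of 17 elongation and initiation factors were measured, 9 above and 5 below 0 (median 0.053), with EIF2B3, a subunit of the exchange factor for eIF2, at -0.33 and the scaffold EIF4G1 at 0.17. Of 6 other synthetase-related genes 4 were measured, 1 above and 3 below 0. PSTK, the kinase that acts on seryl-tRNA for selenocysteine, was at -0.25 (adjusted p = 0.763 in limma), DTD2, a deacylase of mischarged tRNA, at -0.18 and SEPSECS, the next enzyme of selenocysteine synthesis, at 0.17. Neither list had a member at an unadjusted p under 0.05 in limma.

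Array by array, the synthetase medians did not separate the groups. The median deviation of the 17 cytosolic genes from their own means was -0.071, 0.017 and 0.030 on scrambled replicates 1 to 3 and 0.056, 0.018 and -0.0036 on knockdown replicates 1 to 3 (log2). That of the 14 mitochondrial genes without YARS2 was -0.0050, -0.064 and 0.015, then 0.087, 0.010 and 0.016. Knockdown replicate 1 was the highest in both lists, and the scrambled and knockdown ranges overlapped in both. It was the highest array for 7 of 17 cytosolic and 5 of 14 mitochondrial genes, against 26.7% of all genes. Scrambled replicate 1 was the lowest array for 8 of 17 cytosolic genes, against 14.9% of all genes. Without it the cytosolic median turned to -0.012. YARS2 did not follow either array: its highest value was on knockdown replicate 2 and its lowest on scrambled replicate 3.

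**Figure D4:**
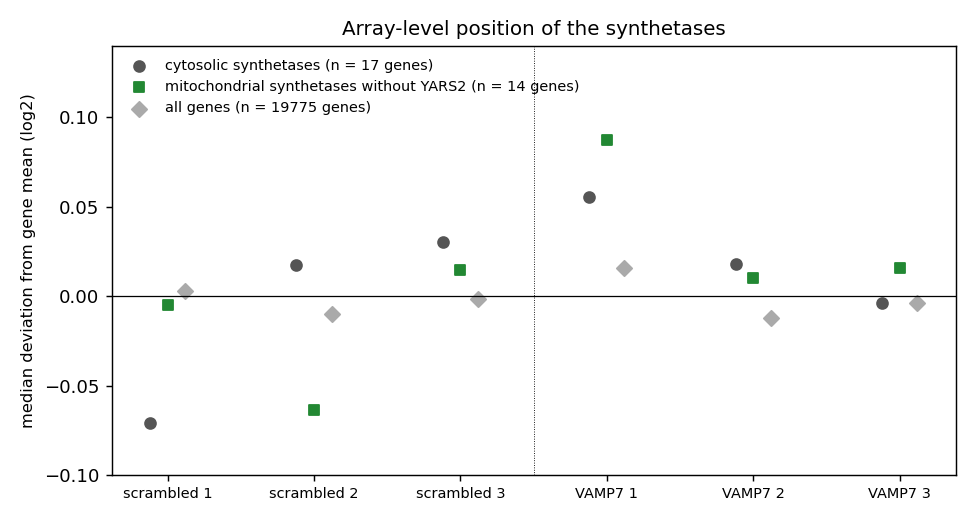
Median deviation from each gene's mean over the 6 arrays, in log2(intensity + 50), for the cytosolic synthetases, the mitochondrial synthetases without YARS2 and all genes, by array. Knockdown replicate 1 is highest in both lists, at 0.056 and 0.087, and the 2 groups of arrays overlap.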

How the data were processed

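RNA from 3 scrambled and 3 VAMP7 siRNA samples was measured on Affymetrix arrays, 1 array per sample. The deposited values are linear intensities. They had the same mean on every array after leaving out 2% of probe sets at each end, and the submitters' processing notes name RMA, which gives log2 values, so how the authors made these intensities stays partly unknown. No background correction or genome build is named there. Genes were assigned to probe sets through GEO's platform annotation: of 54675, 41091 named 1 gene (41037 of these identifiers matched the RefSeq gene table and its current symbols), 1801 several, 11721 none and 62 were controls, left out. Log2(intensity + 50) of the other 54613 was fitted with limma 3.58.1 in R 4.3.3 (lmFit, eBayes, 2 groups, two-sided), with Benjamini-Hochberg adjustment over all probe sets and a threshold of 0.05. The fit was tested on simulated data. A gene is represented by its probe set of highest mean signal. Synthetases named in full were YARS2, YARS1, FARSA, FARSB, those with a probe set at an unadjusted p under 0.05, and the 3 highest and 3 lowest by log2 difference. From each other list, the 2 members of smallest p were named, and TUFM, TRNT1, ATF4, ASNS and SEPSECS were added for their roles. Motifs were searched on both strands in RefSeq promoters. The synthetases, the other lists, the class and complex groups and the motifs were chosen with earlier results of these data known, so a pattern among them is not independent support. Alternatives covered probe set summaries, filters, normalization, offsets, fit options, the replicate block and each array left out.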

Additional observations from a re-analysis of the deposited data

How the results depend on the processing

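The design has 3 arrays a group, YARS2 rests on 1 probe set, and dim probe sets near background carry little weight on the log2 scale used. Of the 31 synthetases tested, which leaves out YARS2, 0 passed under any of 19 alternatives in limma (2 probe sets had an unadjusted p under 0.05 with the settings of the report). The YARS2 log2 difference ran from 1.99 to 2.08 with all arrays and from 1.77 to 2.24 with 1 array left out. The whole table had 1 probe set called, but 2 when the probe sets of each gene were averaged, 4 with an offset of 0 and 5 for probe sets at or above the median with an intensity trend. In none of these 3 settings was a synthetase other than YARS2 called, and the cause was not tested. YARS2 was left out of that count. Centring each array on its median lowered all differences by 0.042: the median of the mitochondrial genes without YARS2 became -0.0068, that of all genes -0.039, and 12 synthetases in place of 21 lay above 0 (38.7%, beside 40.3% of all genes). Leaving out 1 array gave from 16 to 23 synthetases above 0, a cytosolic median from -0.012 (without scrambled replicate 1) to 0.046 and a mitochondrial median from 0.0028 to 0.061. When the probe sets of each gene were averaged, FARSB turned to 0.20, RARS2 to 0.0032 and PKP2 to 0.10, and CARS2 moved from -0.22 to -0.0079. With other offsets, the dim probe set of CARS2 ran from 0.31 to 2.37 and that of FARSB from 0.27 to 0.97. With 1 array left out, PKP2 ran from -0.11 to 0.11, reaching 0.11 without scrambled replicate 1 and 0.079 without knockdown replicate 2. The same replicate numbers did not pair the samples: the correlations of their deviations were -0.0098, 0.0069 and -0.017, and 2 of 6 samples correlated best with their own number. With the replicate block, 1 probe set was called, VAMP7 (adjusted p = 0.0295 in limma), and 0 synthetases.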
